A study of Homo sapiens with 4 samples.

Results

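The nuclear genes that encode the subunits of oxidative phosphorylation were examined in the human liver cancer lines Huh1 and Huh7, both established from hepatocellular carcinoma, after silencing of CDCA8. Members were chosen by symbol alone, as every listed gene named NDUFA, NDUFB, NDUFC, NDUFS or NDUFV with a number, NDUFAB1, SDHA to SDHD, or with a name that starts with UQCR, COX4 to COX8 or ATP5. The rule found 86 of the 18398 genes listed in each library. By textbook role, 38 of them belong to complex I, 4 to complex II, 9 to complex III, 16 to complex IV and 16 to complex V. The remaining 3 (COX4NB, ATP5S and ATP5SL, now named EMC8, DMAC2L and DMAC2) match the rule by name without being subunits, and 20 members carry another current RefSeq symbol, among them all those named ATP5. There were 4 RNA-seq libraries, 1 for each combination of cell line (Huh1 or Huh7) and siRNA (the negative control NCsiRNA or CDCA8siRNA, 15 nM for 48 h), with no replicate of any condition. Each line is a single cell line, so a difference between Huh1 and Huh7 belongs to that pair of lines only.

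Oxidative phosphorylation takes place at the inner mitochondrial membrane. Complex I (NADH dehydrogenase) and complex II (succinate dehydrogenase) pass electrons to ubiquinone, complex III passes them on to cytochrome c, and complex IV (cytochrome c oxidase) reduces oxygen. Complex V, the ATP synthase, makes ATP from the proton gradient that complexes I, III and IV build up. Most subunits are encoded in the nucleus and the others in mitochondrial DNA, except for complex II, whose subunits are all nuclear. Liver cells use the pathway for the energy cost of urea, glucose and lipid metabolism, and liver tumors vary in how much they rely on it. CDCA8 itself is a member of the chromosomal passenger complex, which guides chromosome segregation in mitosis.

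Levels were taken as RPKM (reads per kilobase of transcript and per unit of sequencing depth). The library depths, inferred from the low values, were 12197606 to 13384836 reads. The targeted gene CDCA8 stood at 24.1 RPKM with NCsiRNA and 5.86 RPKM with CDCA8siRNA in Huh1, and at 51.5 and 7.36 RPKM in Huh7. All 8 hepatocyte markers examined (ALB and HNF4A among them) were at 1 RPKM or more in every library. The endothelial markers VWF and CDH5 were at or near 0, and the fibroblast markers COL1A1, COL3A1 and PDGFRB were under 1 RPKM in Huh1. In the Huh7 libraries PDGFRB was at 0.308 and 0.399 RPKM and COL3A1 at 1.89 and 4.14 RPKM, and COL1A1 stood apart from both at 107 and 125 RPKM. Of the bile duct markers, KRT7 was at 84.4 and 81.7 RPKM in Huh1 and at 0.660 and 0.572 RPKM in Huh7. KRT19 was at 110 and 112 RPKM in Huh7, and lower but above 1 RPKM in Huh1. The leukocyte marker CD68 was at 23.3 and 16.5 RPKM in Huh1 and at 3.71 and 3.73 RPKM in Huh7. The leukocyte markers CD3E and PTPRC were under 1 RPKM in every library. None of the 13 protein-coding genes of mitochondrial DNA was among the rows of the files, so that the mitochondrially encoded subunits were not analysed here.

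The subunit genes were among the more abundant transcripts of both lines. Of the 86 members, 80 reached 1 RPKM in at least 1 library of each cell line and were compared further. With NCsiRNA, 73 of these 80 lay above the upper quartile of all 10357 genes that passed this filter in Huh1 (29.1 RPKM), and 72 lay above it in Huh7 (30.9 RPKM). The median member stood at 86.2 RPKM in Huh1 and 79.0 RPKM in Huh7 with NCsiRNA, against 12.6 and 13.7 RPKM for all genes. Summed over all 86, the level was 11324 RPKM in Huh1 with NCsiRNA and 11105 RPKM with CDCA8siRNA. In Huh7 it was 9580 RPKM with NCsiRNA and 9230 RPKM with CDCA8siRNA. These sums were 2.44%, 2.44%, 2.26% and 2.22% of the total RPKM of the respective library.

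**Figure D1:**
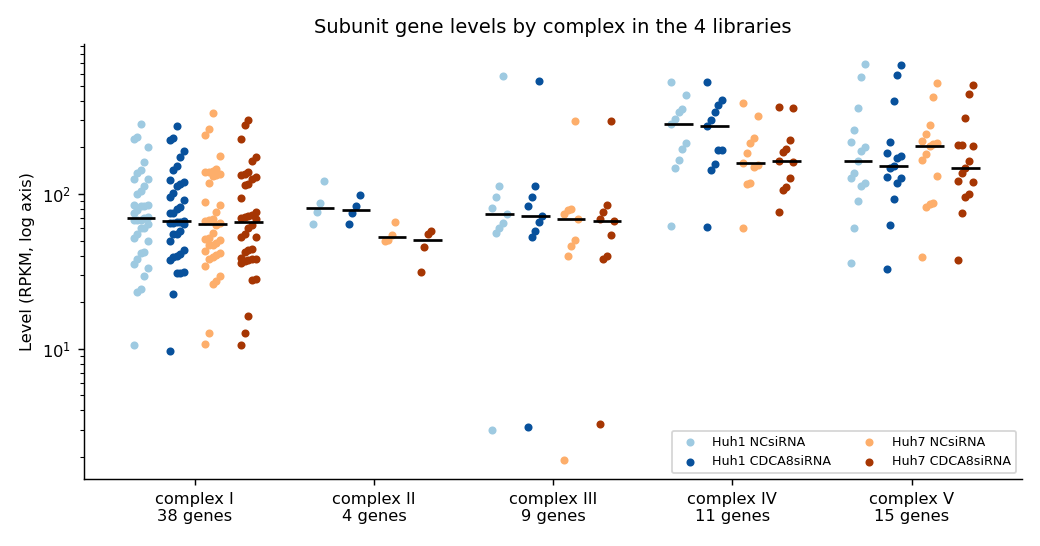
Level of the 77 subunit genes that passed the filter, in RPKM on a log axis, by complex and library. Each point is 1 gene and each black bar the median. Complex IV medians lay at 284 and 275 RPKM in Huh1 and at 158 and 165 RPKM in Huh7.

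Within each complex the levels spread widely, although the subunits assemble in fixed ratios. In complex I, NDUFS5, an accessory subunit, was the highest on average at 286, 276, 241 and 228 RPKM (Huh1 NCsiRNA, Huh1 CDCA8siRNA, Huh7 NCsiRNA and Huh7 CDCA8siRNA, the order used for values of all 4 libraries from here on). NDUFV3, an accessory subunit bound near the NADH site, was the lowest at 10.6, 9.60, 10.8 and 10.6 RPKM. The 4 genes of complex II lay closer together, between 64.0 and 121 RPKM in Huh1 with NCsiRNA. In complex III the hinge protein gene UQCRH reached 581, 540, 298 and 296 RPKM. Its near-identical, intronless relative UQCRHL was listed at 3.0, 3.11, 1.92 and 3.27 RPKM, that is 0.516% to 1.10% of UQCRH, and reads of the pair cannot be assigned with certainty. In complex IV, COX7C was the highest at 534, 531, 385 and 363 RPKM, and COX7A2L, which takes part in supercomplex assembly, was the lowest common gene at 62.1, 61.5, 60.7 and 76.2 RPKM. Complex V ranged from ATP5B, which encodes the catalytic β subunit, at 696, 681, 521 and 506 RPKM, to ATP5D, the δ subunit, at 35.6, 33.0, 39.2 and 37.7 RPKM. NDUFA4, now named COXFA4 and placed with complex IV although its symbol puts it under complex I here, stood at 124, 120, 132 and 135 RPKM.

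Several subunits have isoform genes that are used in other tissues, and these were nearly silent. COX4I1 was at 339, 337, 320 and 357 RPKM while COX4I2, the lung isoform, was listed at 0 in all 4 libraries. COX6A1 was at 439, 403, 215 and 187 RPKM while the heart and muscle isoform COX6A2 was listed at 0 in all 4. COX8A was at 284, 275, 154 and 165 RPKM and COX8C was listed at 0 in each. COX7A2 was at 146, 144, 158 and 160 RPKM, and the muscle isoform COX7A1 was between 0.098 and 0.398 RPKM. COX7B was at 357, 378, 185 and 195 RPKM, and its testis-type relative COX7B2 was between 0 and 0.698 RPKM. COX6B1 was at 307, 302, 229 and 224 RPKM. ATP5L, the g subunit of complex V, was at 113, 129, 86.8 and 96.0 RPKM, and its relative ATP5L2 was between 0.122 and 0.491 RPKM. These 6 low genes are the members that did not pass the filter. Of 3 muscle markers, MYH7 and CKM were under 0.1 RPKM in every library, and ACTA1 was at 0.146, 0.254, 0.966 and 1.34 RPKM.

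The c ring of complex V is made of a protein that 3 genes encode as different precursors with 1 mature sequence. ATP5G1 stood at 90.0, 92.5, 166 and 147 RPKM, ATP5G2 at 190, 184, 211 and 209 RPKM, and ATP5G3 at 119, 118, 130 and 121 RPKM. ATP5G2 gave the largest part in each library. ATP5G1 gave 22.6% and 23.4% of the summed c ring level in Huh1 and 32.7% and 30.8% in Huh7. RefSeq lists 8 pseudogenes named after ATP5G1 and 5 after ATP5G2, with which reads may be shared.

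Next, the effect of CDCA8siRNA on the subunit genes was investigated within each line. A change is the difference of log2(RPKM + 1) between CDCA8siRNA and NCsiRNA, a scale that understates the change of low genes. The subunit genes as a whole differed little between the siRNAs. Over the 80 members the median change was -0.02 in Huh1 and -0.04 in Huh7, against 0.02 and 0.03 over all 10357 genes. The changes ranged from -0.43 (ATP5C1) to 0.35 (NDUFA7) in Huh1 and from -1.02 (ATP5C1) to 0.55 (UQCRHL) in Huh7. Across members, the level with NCsiRNA and with CDCA8siRNA gave a Pearson's r of 0.995 in Huh1 and 0.985 in Huh7 (n = 80 genes, which share the libraries and are not replicates).

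In Huh1, 0 members were 2-fold higher and 0 were 2-fold lower, where 0.32% and 0.174% of all genes were. In Huh7, 0 were 2-fold higher, where 0.873% of all genes were, and 1 (ATP5C1) was 2-fold lower, where 0.7% were. At the smaller step of 25% higher or 20% lower on the scale of RPKM + 1, 1 member was higher in Huh1 (NDUFA7, against 11% of all genes) and 3 were lower (ATP5C1, NDUFB10 and NDUFS4, 3.75% against 6.73%). In Huh7, 3 were higher (COX7A2L, NDUFB7 and UQCRHL, 3.75% against 17%) and 6 were lower (ATP5A1, ATP5C1, ATP5O, NDUFC1, NDUFS4 and SDHD, 7.5% against 11.3%). With 1 library per condition these counts have no replicate check. In both lines, 16 members (20%) were higher and 31 (38.8%) were lower, where 39% and 30.5% of all genes were, and 33 members (41.2%) had opposite signs, where 30.6% did. Sampling of reads alone gives a member's change an SD of at most 0.08 in Huh1 and 0.10 in Huh7 (medians over the 78 members with a coding length). The change was over 2 of these SDs for 12 of the 78 in Huh1 (15.4%, where 27.9% of all genes with a coding length were) and for 24 in Huh7 (30.8%, where 38.9% were).

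**Figure D2:**
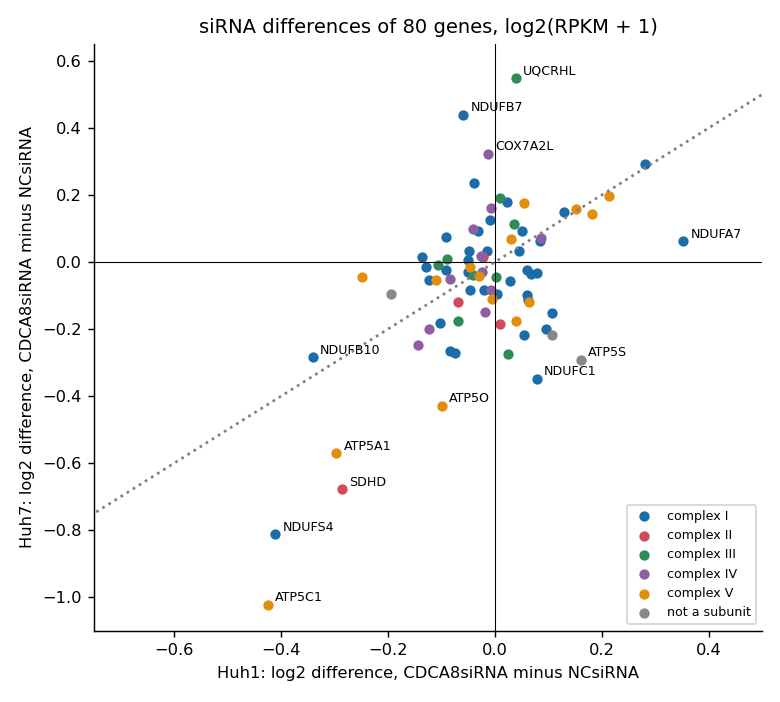
Change with CDCA8siRNA in Huh1 (x axis) and in Huh7 (y axis), as the difference of log2(RPKM + 1), for the 80 members colored by complex. The dotted line marks equal change. Most points crowd around 0 while ATP5C1, NDUFS4, SDHD and ATP5A1 lie apart at the lower left, farther from 0 in Huh7 than in Huh1.

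A limma fit to all 4 libraries, with cell line and siRNA as terms, asked which changes were shared by the lines. It measures how alike the lines responded, not the spread between transfections. Of the 80 members, 4 fell (5%, where 4.21% of all genes did) and 0 rose (where 6.03% did) at an adjusted p-value under 0.05 in limma with Benjamini-Hochberg adjustment over all 10357 genes. Under quantile normalization 5 fell and 1 rose. At an unadjusted p-value under 0.05, 2 members were higher (2.5%, where 15.5% of all genes were) and 7 lower (8.75%, where 10.5% were). The 4 were ATP5C1, NDUFS4, ATP5A1 and SDHD, which belong to 3 complexes. Their share among members was close to that among all genes. No member was called without the cell line term or without the filter on low values. In those fits no gene at all was called (0 of 10357 and 0 of 18398), and the log2 changes of the 4 members were as before.

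ATP5C1 encodes the γ subunit, the rotating shaft inside the F1 head of complex V. It stood at 203 RPKM with NCsiRNA and 151 RPKM with CDCA8siRNA in Huh1, and at 245 and 120 RPKM in Huh7. Both CDCA8siRNA libraries were below both NCsiRNA libraries, and the mean log2 change was -0.72 ± 0.12 (SE, limma adjusted p = 0.00945). The β subunit gene ATP5B hardly differed, so ATP5C1 was 29.2% and 22.2% of the ATP5B level in Huh1 and 47.0% and 23.7% in Huh7.

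ATP5A1 encodes the α subunit, which alternates with β in the F1 head. It stood at 216 and 176 RPKM in Huh1 and at 203 and 137 RPKM in Huh7, again with both CDCA8siRNA values below both NCsiRNA values. The mean log2 change was -0.43 ± 0.09 (SE, limma adjusted p = 0.0179, and 0.0641 without the trend). RefSeq lists 7 pseudogenes named after this gene or its current name.

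SDHD encodes the small membrane anchor of complex II. It stood at 121 and 99.0 RPKM in Huh1 and at 50.4 and 31.1 RPKM in Huh7. Across lines the siRNA groups overlapped, and within each line the CDCA8siRNA library was the lower. The mean log2 change was -0.48 ± 0.11 (SE, limma adjusted p = 0.0239, and 0.063 without the trend). RefSeq lists 7 pseudogenes named after this gene too. Its partner anchor SDHC was at 76.1 and 74.9 RPKM in Huh1 and 54.6 and 55.2 RPKM in Huh7. The flavoprotein gene SDHA was at 87.6, 83.5, 49.4 and 45.3 RPKM, and the iron-sulfur subunit gene SDHB at 64.0, 64.4, 65.7 and 57.7 RPKM. SDHD thus went from 138% to 119% of SDHA in Huh1 and from 102% to 68.7% in Huh7.

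NDUFS4 encodes an accessory subunit needed to complete the NADH-oxidizing module of complex I, and its loss is a known cause of Leigh syndrome. It stood at 52.1 and 38.9 RPKM in Huh1 and at 29.3 and 16.3 RPKM in Huh7. The values of the siRNA groups overlapped here too, although each CDCA8siRNA value was below the NCsiRNA value of its line. The mean log2 change was -0.61 ± 0.11 (SE, limma adjusted p = 0.0129). At least 105 reads stood behind the lowest of these values.

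**Figure D3:**
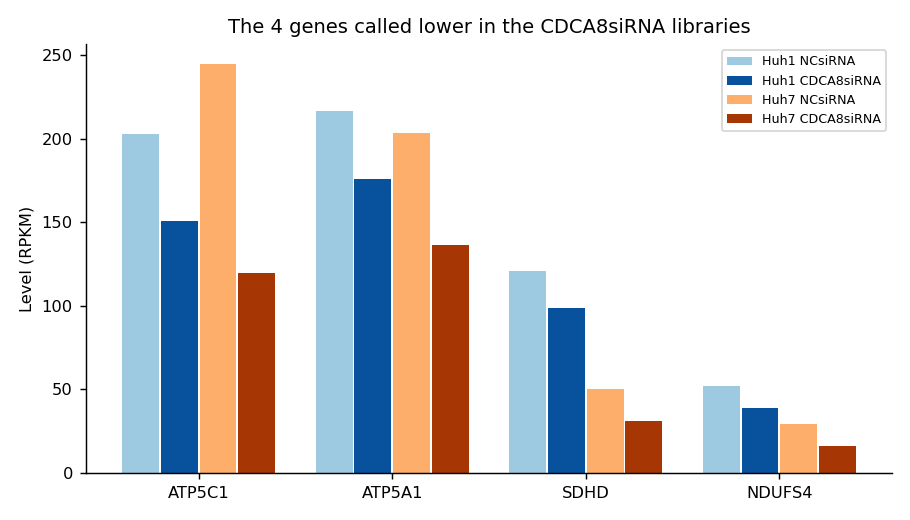
RPKM of the 4 members called lower with CDCA8siRNA, 1 bar per library on an axis from 0, with no error bars because each condition has 1 library. Each CDCA8siRNA bar is below the NCsiRNA bar of the same line, with the widest gap for ATP5C1 in Huh7, from 245 to 120 RPKM.

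The sequence around the start of these 4 genes is shown because their promoters can be compared for the sites that are known from other subunit genes. Each line gives 120 bases before and 30 bases after the RefSeq start, on the strand of the gene in GRCh38.p14, in lower case. Capitals mark matches, on either strand, to GCGCATGC (the core bound by NRF1, a regulator of mitochondrial genes), CCGGAAGT (bound by ETS factors such as GABPA) or AAGATGGC (bound by YY1).

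ATP5C1, chr10:7788057-7788206, plus strand: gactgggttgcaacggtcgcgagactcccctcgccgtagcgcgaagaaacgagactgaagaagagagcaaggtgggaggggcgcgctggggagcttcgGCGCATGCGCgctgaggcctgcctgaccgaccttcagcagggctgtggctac
SDHD, chr11:112086753-112086902, plus strand: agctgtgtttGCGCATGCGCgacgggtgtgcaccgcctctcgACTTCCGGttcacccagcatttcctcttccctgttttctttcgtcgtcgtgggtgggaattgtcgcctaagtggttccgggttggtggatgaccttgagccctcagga
NDUFS4, chr5:53560519-53560668, plus strand: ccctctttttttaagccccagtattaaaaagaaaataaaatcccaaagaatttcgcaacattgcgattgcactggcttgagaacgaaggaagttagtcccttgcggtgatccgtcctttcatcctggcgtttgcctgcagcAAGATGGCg
ATP5A1, chr18:46104198-46104347, minus strand: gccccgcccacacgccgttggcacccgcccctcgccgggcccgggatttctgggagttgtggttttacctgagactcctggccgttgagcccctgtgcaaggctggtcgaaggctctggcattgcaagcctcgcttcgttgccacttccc

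The ATP5C1 and SDHD windows each held the NRF1 core on both strands, as overlapping matches in 1 palindromic run. SDHD also held an ETS match, NDUFS4 a YY1 match just after the start, and ATP5A1 none of the 3. RefSeq promoters of 300 bases were at hand for 69 of the 86 members. Of these, 13 (18.8%) held the NRF1 core, 9 (13%) the ETS letters and 11 (15.9%) the YY1 letters, and 27 (39.1%) held at least 1. Over all 15843 protein-coding promoters the shares were 4.26%, 6.19%, 3.91% and 13.2%, and over the 8612 promoters of genes that passed the filter they were 6.11%, 10.2%, 6.22% and 20.6%. The match is one of letters and does not show binding.

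The genes next to the 4 on the chromosome were listed as well. ATP5C1 and KIN start head to head, and KIN was at 9.33 and 10.4 RPKM in Huh1 and 15.8 and 14.1 RPKM in Huh7, a mean log2 change of -0.01 (limma adjusted p = 0.967). HAUS1, which starts head to head with ATP5A1, had a mean log2 change of -0.13 (limma adjusted p = 0.472). TIMM8B, beside SDHD, was at 52.7 and 72.0 RPKM in Huh1 and at 33.7 and 36.9 RPKM in Huh7, the opposite direction to SDHD (limma adjusted p = 0.116). FST, the neighbor of NDUFS4, fell with it by 0.51 on the log2 scale (limma adjusted p = 0.0472), whereas ARL15 on its other side had a mean log2 change of -0.06 (limma adjusted p = 0.811). IL18, on the other side of SDHD, rose by 0.52 (limma adjusted p = 0.0455). EPG5 beside ATP5A1 and TAF3 beside ATP5C1 each had a mean log2 change of 0.23 and did not pass the test.

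The other members named by size of change did not pass the test. In complex I, NDUFB10, an accessory subunit of the membrane arm, was at 84.1, 66.2, 46.6 and 38.1 RPKM (mean log2 change -0.31, limma adjusted p = 0.0527). NDUFA7 was at 24.2, 31.1, 41.8 and 43.6 RPKM (limma adjusted p = 0.244). NDUFB10 had nearly the same change in both lines, whereas that of NDUFA7 came from Huh1. There the NDUFA7 change of 0.35 was just within 2 sampling SDs (SD 0.18).

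Complex III and complex IV held no called member. In complex III the Rieske iron-sulfur protein gene UQCRFS1 was at 95.2, 95.7, 74.7 and 85.5 RPKM and UQCR10, a small subunit, at 60.7, 57.8, 78.4 and 69.2 RPKM. UQCRQ, which encodes a ubiquinone-binding subunit, was at 81.8, 83.2, 46.3 and 38.2 RPKM. UQCRHL gave the highest change of all members in Huh7, but from a lower bound of 6.46 reads with NCsiRNA and 11.1 with CDCA8siRNA, and its change of 0.55 was close to the sampling SD of 0.50. In complex IV, COX5B was at 213, 193, 151 and 127 RPKM and had the lowest change of the complex in both lines. In Huh1, 10 of the 11 complex IV genes were lower with CDCA8siRNA, but by at most 0.14 on the log2 scale. In Huh7 6 of 11 were lower. Of all 10357 genes, 4685 were lower in Huh1 and 4793 in Huh7.

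In complex V, ATP5F1, the b subunit of the peripheral stalk, was at 127, 148, 87.5 and 100 RPKM (mean log2 change 0.20, limma adjusted p = 0.141), and ATP5O, which joins the stalk to the head, was at 136, 127, 219 and 163 RPKM (limma adjusted p = 0.111). The 5 genes of the F1 head had a median change of -0.11 in Huh1 and -0.05 in Huh7. In each line 4 of 5 were lower, with ATP5E the exception, where 4685 and 4793 of all 10357 genes were. The 3 genes ATP5I, ATP5J2 and ATP5L of the membrane part were higher in both lines, with medians of 0.15 and 0.16. The summed level of complex V with CDCA8siRNA was 0.980 of that with NCsiRNA in Huh1 (1.00 under quantile normalization) and 0.932 in Huh7. For complex II the ratios were 0.923 and 0.860, and for complexes I, III and IV they lay between 0.959 and 0.996, with 3 of these 6 above 1 under quantile normalization. The counting error of these ratios is given by 95% intervals of ± 0.02 to ± 0.06, which hold no variation between cultures. Over all 10357 genes the ratio of summed levels was 0.979 in Huh1 and 0.983 in Huh7. Within complex II, SDHD had the lowest change in both lines.

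Other genes of the pathway were examined from lists of textbook members. Among 5 electron carrier genes, CYCS, which encodes cytochrome c, rose, at 57.4 and 75.5 RPKM in Huh1 and 66.0 and 89.4 RPKM in Huh7 (mean log2 change 0.41 ± 0.08 SE, limma adjusted p = 0.0188), and the other 4 did not pass the test. Of 45 assembly factors, 0 rose and 2 fell, where 6.03% and 4.21% of all genes did. The 2 were C7orf44 (COA1) and TMEM126B, a complex I assembly factor. C7orf44 was at 45.5 and 36.8 RPKM in Huh1 and 53.7 and 30.1 RPKM in Huh7. TMEM126B was at 45.5 and 36.3 RPKM in Huh1 and 24.3 and 18.5 RPKM in Huh7. Their limma adjusted p-values were 0.0240 and 0.0470. Of 13 regulators of mitochondrial gene expression 0 passed in either direction, TFAM and NRF1 among them. In 4 genes of relatives and inhibitors, including the ATP synthase inhibitor ATPIF1, and in 3 carriers, including the ADP/ATP carrier SLC25A5, 0 passed as well. Beside these, 6 of the 8 hepatocyte markers fell with CDCA8siRNA. Their summed level was 5037 and 3872 RPKM in Huh1 and 3113 and 2171 RPKM in Huh7, and a part of this in the changes of the 4 members was not tested.

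The 2 cell lines differed far more than the siRNAs did. With NCsiRNA the median difference of the 80 members, Huh7 minus Huh1, was -0.31 on the log2(RPKM + 1) scale, and with CDCA8siRNA it was -0.30, whereas the median of all 10357 genes was 0.10 in both. The members thus lay 0.41 and 0.40 below the median gene, and 0.23 and 0.19 below it under quantile normalization. Each library averages over the cells of 1 line, so fewer cells with a transcript and less of it per cell cannot be told apart. Of the 80 members, 51 (63.8%) were lower in Huh7 with both siRNAs, where 39% of all genes were, and 24 (30%) were higher, where 50.2% were. In the limma fit 44 members were lower in Huh7 (55%, against 28.7% of all genes) and 15 were higher (18.8%, against 39.1%). For this term only the NCsiRNA and CDCA8siRNA libraries repeat a line, and they are not replicates of it. Its p-values measure how alike the line difference was with both siRNAs, not the spread between cultures. The levels of members in Huh1 and Huh7 with NCsiRNA still correlated across members, with Pearson's r at 0.904 and Spearman's rho at 0.870 (n = 80 genes).

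The difference was uneven across the complexes. The summed level in Huh7 was 0.631 of that in Huh1 for complex II, 0.653 for complex III and 0.687 for complex IV, all with NCsiRNA. For complex V it was 0.924 and for complex I 0.988, and both turned just above 1 under quantile normalization (1.03 and 1.01). Counting error gave these ratios 95% intervals of ± 0.02 to ± 0.04. Over all 10357 genes the ratio with NCsiRNA was 0.912. By summed level, complexes II, III and IV thus lay below all genes, complex V close to them and complex I above them. By gene, complex I lay below them too, with a median difference of -0.28 against 0.10 for all genes. In complex I 20 of 38 genes were lower in Huh7 by the limma test and 9 were higher, where 28.7% and 39.1% of all genes were. In complex IV 8 of 11 genes were lower in Huh7 by the limma test and 0 were higher, and in complex III 6 of 9 were lower and 1, UQCR10, was higher. In complex II 3 of 4 were lower. Complex V held 6 lower and 4 higher of 15. For complex V the ratio of medians over members was 1.24, opposite to the ratio of sums. ATP5B and ATP5E, the highest genes of the complex, were both lower in Huh7. In complex III the sum was weighted by UQCRH, its highest gene, at 581 RPKM in Huh1 and 298 RPKM in Huh7 with NCsiRNA. The median over the complex III members was 74.7 RPKM in Huh1 and 69.1 RPKM in Huh7.

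**Figure D4:**
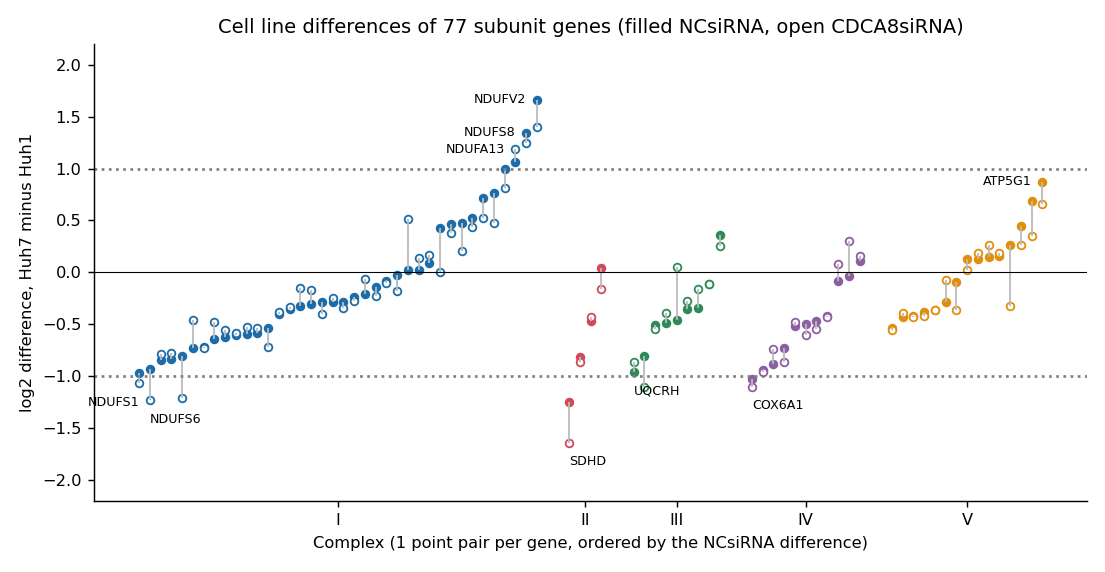
Difference of log2(RPKM + 1), Huh7 minus Huh1, for the 77 subunit genes, with NCsiRNA (filled) and CDCA8siRNA (open) joined by a line. Dotted lines mark 2-fold. Complexes II, III and IV lie mostly below 0, and NDUFV2, NDUFS8 and NDUFA13 of complex I lie above the upper dotted line with both siRNAs.

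At 2-fold with NCsiRNA, 3 members were higher in Huh7 (3.75%, against 17% of all genes) and 3 were lower (3.75%, against 10.2%). With CDCA8siRNA, the same 3 were higher (against 17.4%) and 7 were lower (8.75%, against 10.1%). Under upper quartile scaling the split with NCsiRNA was 2 higher and 7 lower.

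The 3 higher members all belong to complex I. NDUFV2, a core iron-sulfur subunit of the NADH-oxidizing module, stood at 105 and 113 RPKM in Huh1 and at 335 and 301 RPKM in Huh7. NDUFS8, a core iron-sulfur subunit near the ubiquinone site, stood at 55.1 and 57.8 RPKM in Huh1 and at 142 and 138 RPKM in Huh7. NDUFA13, an accessory subunit also known as GRIM-19, stood at 126 and 123 RPKM in Huh1 and at 263 and 281 RPKM in Huh7. In each of them both Huh7 libraries were above both Huh1 libraries, with mean log2 differences of 1.53, 1.30 and 1.12 (limma adjusted p = 4.44e-07, 1.06e-06 and 1.67e-06). The 3 were picked for being 2-fold apart with both siRNAs, so the separation and the p-values add no separate support. NDUFV2 was 125% of its binding partner NDUFV1 in Huh1 and 240% in Huh7 with NCsiRNA. The 7 core genes of complex I summed to 1.56 times the Huh1 level in Huh7, and the 31 accessory genes to 0.888 times. Without NDUFV2 and NDUFS8 the other 5 core genes summed to 0.914 times, and 4 of these 5 were lower in Huh7. NDUFS1, which carries several iron-sulfur clusters, stood at 75.5 and 75.7 RPKM in Huh1 and at 38.1 and 35.6 RPKM in Huh7.

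The members 2-fold lower in Huh7 with both siRNAs were SDHD, COX6A1 and ATP5S. SDHD was given above, with a mean log2 difference of -1.44 (limma adjusted p = 2.46e-06). COX6A1, a small structural subunit of complex IV, had one of -1.06 (limma adjusted p = 1.5e-06). As with the higher members, these p-values come from the values by which the genes were picked. ATP5S, not a subunit, stood at 7.88 and 8.92 RPKM in Huh1 and at 2.68 and 2.00 RPKM in Huh7. With CDCA8siRNA alone NDUFS1, NDUFS4, NDUFS6 and UQCRQ also passed 2-fold. With NCsiRNA these 4 lay inside the limit, between -0.97 and -0.81.

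The position of the members on the chromosomes was then set beside their difference between the lines. For each member the median difference was taken over the 20 nearest other genes that passed the filter, 10 on each side in the RefSeq order. Across the 77 members with 20 such neighbors, the member's difference and that of its neighbors with NCsiRNA were correlated (Pearson's r 0.678, Spearman's rho 0.673). Without the members on chromosome 11 the r was 0.638 (n = 70). Over all 9851 genes with 20 neighbors it was 0.378. Most of these genes stand at lower levels than the members, so the r values come from unlike sets. Members share libraries and, where close together, neighbors, so these are descriptions.

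NDUFS8 and NDUFV1 lie close together on chromosome 11 and share 18 of their 20 neighbors. Their differences were 1.35 and 0.72, and the median of the neighbors was 1.35 for both. NDUFA13 on chromosome 19 had a difference of 1.06 and its neighbors a median of 1.13. NDUFB10 on chromosome 16 had a difference of -0.84 and its neighbors a median of -1.01. NDUFV2 on chromosome 18 stood apart, with 1.66 against 0.53, as did SDHD on chromosome 11, with -1.25 against -0.03. Other members also lay far from their neighbors, among them ATP5S (-1.27 against -0.13), UQCRH (-0.96 against 0.17) and ATP5G1 (0.87 against -0.10). Of 24 members higher in Huh7, 21 had neighbors with a median above 0, and of 53 lower members 19 did. The median of all 10357 genes was itself above 0, at 0.10. The share of all genes with such neighbors was not taken, so these counts have no background. For the changes with CDCA8siRNA the correlation of members with their neighbors gave an r of 0.209 in Huh1 and 0.248 in Huh7.

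**Figure D5:**
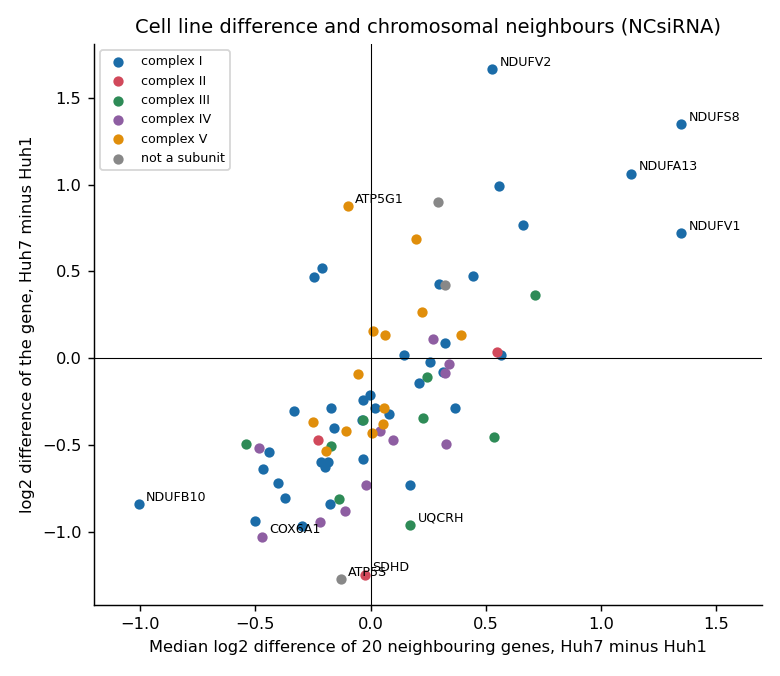
Difference between the lines with NCsiRNA, as log2(RPKM + 1) in Huh7 minus Huh1, of each of 77 members (y axis) against the median of its 20 neighboring genes (x axis). Points run from the lower left to the upper right (r 0.678), with NDUFS8, NDUFV1 and NDUFA13 at the right edge.

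Among the other genes of the pathway, ETFB, a subunit of the flavoprotein that feeds electrons from fatty acid oxidation to ubiquinone, stood at 344 and 315 RPKM in Huh1 and at 63.9 and 71.9 RPKM in Huh7. In all, 4 of the 5 electron carriers were lower in Huh7 by the limma test and 1, CYCS, was higher. The assembly factors split evenly, with 16 higher and 16 lower of 45, where 39.1% of all genes were higher and 28.7% lower. Of the 13 regulators, 8 were lower, including TFAM at 77.9 and 78.9 RPKM in Huh1 and 43.2 and 40.0 RPKM in Huh7, and 1 was higher.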

How the data were processed

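Sequenced RNA of Huh1 and Huh7 gave 4 libraries, which were grouped by the line and siRNA in their labels. Dose and time are from the study's methods. The authors deposited 1 value per RefSeq transcript and library without a stated unit. The deposited values were taken as RPKM. Multiplied by GENCODE transcript length, low values cluster at multiples of 1 constant per library, from which the depths come. Of values under 3.5 reads, 31.3% to 35.2% per library were within 0.05 of a whole number, and the authors' lengths may differ. Per the submitters' processing notes, CASAVA 1.8.2, TopHat2 2.0.9 and hg19 were used. The counter, the annotation and the treatment of strand are not given in the sources used here. Other low values lie at fractions of a read, as when reads with several alignments are divided, so members with pseudogenes or near copies are uncertain.

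Changes were differences of log2(RPKM + 1) for genes that reached 1 RPKM in either library compared, and for summaries in either library of each line. limma 3.58.1 in R 4.3.3 was fitted with line and siRNA as terms (lmFit, then eBayes with a trend), with 1 residual degree of freedom and 8.29 prior degrees of freedom, with Benjamini-Hochberg adjustment over 10357 genes. Reads behind a member were taken as a lower bound from its coding length in GENCODE (84 of 86 members), and the sampling SD from them as an upper bound. Intervals cover counting error only. Names, chromosomes and gene order are from RefSeq on GRCh38.p14, matched by accession for 86 members. Their promoters, from 250 bases before to 50 bases after the start, are from RefSeq too. Python 3.11.15 with numpy 2.4.6 and pandas 2.3.3 was used for the rest.

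The members, the gene lists and the tests were chosen with earlier results of these data known. Members were named by rule. They are those with the highest and lowest level and the 2 highest and 2 lowest changes of each complex, all called for siRNA, those 2-fold apart between the lines with both siRNAs, the 3 widest gaps between the lines, and isoform genes. COX6B2 was not among the rows, and the values of 1 member named by the rule are not reported here. Members past the smaller step or past 2-fold under 1 siRNA, and further genes of the lists, were named after their values were seen. The alternatives were a pseudocount of 0.1, no filter, a minimum of 5 RPKM, quantile normalization, upper quartile scaling, limma without the line term or the trend, and medians in place of sums.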

Additional observations from a re-analysis of the deposited data

Results flagged for a closer look

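Among the members named by rule, 14 had a change with CDCA8siRNA of opposite sign in Huh1 and Huh7. NDUFB7, NDUFC1 and ATP5S were on the list because their signs were opposite. Opposite signs were found in 41.2% of all 80 members and in 30.6% of all 10357 genes. In Huh1 the changes of all 14 lay within 2 sampling SDs. In Huh7 only those of NDUFB7, COX7A2L, COX4I1, NDUFV2, ATP5G1 and SDHB were larger than that. With 1 library per condition the difference between the lines was not tested. The values below are the change in Huh7 minus the change in Huh1, on the log2(RPKM + 1) scale. Huh7 had the higher change for NDUFB7 (by 0.50), COX7A2L (0.34), COX4I1 (0.17), COX8A (0.14), NDUFA13 (0.13), COX7A2 (0.0453) and SDHC (0.0384). It had the lower change for ATP5S (-0.45), NDUFC1 (-0.43), UQCRQ (-0.30), NDUFV2 (-0.26), ATP5G1 (-0.22), SDHB (-0.19) and NDUFS8 (-0.10). NDUFB7, an accessory subunit of complex I, was at 67.9 and 65.1 RPKM in Huh1 and at 68.8 and 93.6 RPKM in Huh7. NDUFC1, another accessory subunit, was at 35.4 and 37.5 RPKM in Huh1 and at 48 and 37.5 RPKM in Huh7. ATP5S rests on as few as 9.43 reads.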

How the results depend on the processing

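With 1 library per condition, no replicate could be left out. The siRNA libraries are paired by cell line, and the line term of limma is that block. Without this replicate block 0 members were lower for siRNA in place of 4. The count was also 0 without the filter and 2 without the trend (ATP5C1 and NDUFS4). Under quantile normalization 1 member was higher in place of 0. NDUFB10 was called lower with a minimum of 5, with quantile normalization and with upper quartile scaling. Without the filter, 8 members were higher in Huh7 in the limma fit in place of 15, and 3 in place of 1 were 25% higher in Huh1 with CDCA8siRNA. Upper quartile scaling moved the median difference between the lines to -0.41 with NCsiRNA and -0.40 with CDCA8siRNA and gave 7 members 2-fold lower with NCsiRNA. Quantile normalization moved the median of all genes from 0.10 to -0.03 with NCsiRNA, and the members then lay 0.23 below it in place of 0.41 (0.19 in place of 0.40 with CDCA8siRNA).

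The ratios of summed levels moved by more than counting error as follows. Between the lines with NCsiRNA, upper quartile scaling gave 0.923, 0.589, 0.609, 0.642 and 0.863 for complexes I to V. Quantile normalization gave 0.692 for III, 0.772 for IV and 1.03 for V. Medians in place of sums gave 0.912 for I, 0.926 for III, 0.557 for IV and 1.24 for V. For CDCA8siRNA in Huh1, medians gave 0.953 for I and 0.920 for V, and quantile normalization 1.00 for V. In Huh7, medians gave 1.04 for I, 0.957 for II, 1.04 for IV and 0.720 for V, and quantile normalization 1.03 for IV. Quantile normalization also put 1.01 on complex I between the lines, 1.00 on complex I in Huh1 and 1.01 on complex III in Huh7, so the direction of these ratios near 1 depends on the choice. The other 122 summary values stayed within their limits, and the cause of those that moved was not tested.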
